A study of Mus musculus with 32 samples.

Results

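A pair of migratory dendritic cell (DC) subsets of mouse skin-draining lymph nodes was compared by the positions of accessible chromatin: DN migDC (6 libraries) against migDC1 (4 libraries). These were 10 of the 32 libraries in the series, and they were chosen by the cell type label within the cohort with floxed Ifngr1 alleles. DN migDC comprised 3 libraries of CD11cCREpos/IFNgr1flfl mice (Cre-positive) and 3 of CD11cCREneg/IFNgr1flfl mice (Cre-negative). migDC1 comprised 2 Cre-positive and 2 Cre-negative libraries. All 10 therefore came from mice whose Ifngr1 gene, which encodes the ligand-binding chain of the interferon-γ receptor, carries floxed alleles. The Cre recombinase is driven by the promoter of CD11c, which DC share with some other myeloid cells, and the Cre-positive libraries carry the treatment label Ifngr1 KO. The other 22 libraries were resident cDC2 and cDC1 (6 each, Cre-positive and Cre-negative) and migDC2 (6 floxed, 4 germline), and they serve below only to look up regions. The source names add CD11b and CD103 for DN migDC and CD103 for migDC1. CD11b and CD103 are the integrins encoded by Itgam and Itgae, so these loci were tied to the sort and are not read as findings. The labels give no age or sex, do not spell out DN, and do not say that replicates came from separate animals, so the p-values reflect variation among these libraries only, and that variation could be technical.

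As background, DC of the cDC1 lineage depend on the transcription factors IRF8 and BATF3, carry the chemokine receptor XCR1 and excel at cross-presenting antigen to CD8 T cells. DC of the cDC2 lineage depend on factors such as IRF4 and ZEB2 and carry the inhibitory receptor SIRPα. Both leave the skin through lymphatic vessels guided by CCR7 and mature on the way, gaining costimulatory molecules such as CD40. ATAC-seq marks open chromatin, since the Tn5 transposase cuts where nucleosomes leave DNA exposed, and open regions include promoters and enhancers.

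A region was counted as called in a library when that library's peak list covered it, and a difference therefore means a different number of libraries with a peak, not a different peak height. The 10 peak lists held 44991 to 74975 peaks on chromosomes 1 to 19 and X. DN migDC lists had 63776 ± 7442 peaks (SD, n = 6) and migDC1 lists 55414 ± 7036 (SD, n = 4), and that difference of 8362 did not exceed the spread between libraries (exact permutation p = 0.21, two-sided). DN migDC Cre-positive 1 had the longest list, with peaks of a median width of 401 bp, and migDC1 Cre-negative 1 the shortest. The sequencing depth is unknown. The DN migDC libraries were made under both plain titles (2 libraries) and lettered titles (4), whereas all migDC1 titles were lettered and all resident ones plain. The labels do not call these titles batches.

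Of the 6 regions of Xcr1, 1 separated the subsets completely. Another 4 were called in all 10 libraries, among them chr9:123862697-123864125 beside the separating one. The region at chr9:123861728-123862357 (mm10, 630 bp), which holds the listed start of the gene, was called in 0 of 6 DN migDC and 4 of 4 migDC1 libraries. Its peak ranked at the 38.5th and 36th percentile of the list in migDC1 Cre-positive 1 and 2, and at the 23.8th and 39.8th in migDC1 Cre-negative 1 and 2. These are sorted bulk samples, in which fewer cells of a type and a weaker opening in each cell cannot be told apart. In lists of equal length (below) the region stayed at 0 of 6 and 4 of 4. Another gene of the cDC1 list went the other way. The region at chr6:71373047-71373666, over the start of Cd8a, which encodes a co-receptor chain found on resident cDC1 of lymphoid tissue, was called in 6 of 6 DN migDC and 0 of 4 migDC1 libraries. Its peaks in DN migDC ranked between the 4.8th (Cre-negative 2) and the 50.5th percentile (Cre-positive 1), and in lists of equal length 4 of 6 DN migDC and 0 of 4 migDC1 libraries kept it. Resident cells played no part in choosing these regions. The separating regions of Xcr1 and Cd8a each had a peak in 0 of 6 cDC2 but 6 of 6 cDC1 libraries. Both had a peak in 0 of 6 floxed migDC2 libraries. The start of Pou2af1, a coactivator known from B cells, was called in 6 of 6 DN migDC and 0 of 4 migDC1 libraries (chr9:51213059-51214147). In lists of equal length 4 of 6 DN migDC and 0 of 4 migDC1 libraries kept it. The region also had a peak in 6 of 6 cDC2, 3 of 6 cDC1 and 2 of 6 floxed migDC2 libraries. The 250 bases before these starts are shown since the regions cover them whole. They are from RefSeq, GRCm38.p6, on the strand of the gene, and capitals mark the letters GGAANNGAA, a composite of ETS and IRF letters, on either strand.
Xcr1 (chr9:123862030-123862279, minus strand): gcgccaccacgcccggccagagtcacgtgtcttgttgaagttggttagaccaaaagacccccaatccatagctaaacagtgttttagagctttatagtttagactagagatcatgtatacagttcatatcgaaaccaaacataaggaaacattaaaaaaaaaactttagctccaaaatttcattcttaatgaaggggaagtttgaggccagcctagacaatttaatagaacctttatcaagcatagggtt
Cd8a (chr6:71373177-71373426, plus strand): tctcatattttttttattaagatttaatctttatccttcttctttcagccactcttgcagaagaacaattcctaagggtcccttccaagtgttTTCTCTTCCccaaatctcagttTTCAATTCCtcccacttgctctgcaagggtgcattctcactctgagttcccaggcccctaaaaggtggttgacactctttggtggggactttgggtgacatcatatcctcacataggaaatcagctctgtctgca
Pou2af1 (chr9:51213440-51213689, plus strand): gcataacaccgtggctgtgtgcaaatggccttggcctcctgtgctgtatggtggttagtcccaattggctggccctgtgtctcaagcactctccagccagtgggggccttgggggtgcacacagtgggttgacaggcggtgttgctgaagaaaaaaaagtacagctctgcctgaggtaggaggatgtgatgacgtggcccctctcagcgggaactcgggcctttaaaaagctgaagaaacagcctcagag

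The Cd8a window holds those letters at bases 94 to 102 and 116 to 124, counted from its 5′ end, and the Xcr1 and Pou2af1 windows do not hold them. Of 32619 listed windows of 250 bases, 6.89% hold them. None of the 3 windows holds the letters of 5 further motifs searched on both strands: TGANTCA of AP-1 (in 6.78% of all windows), GAAANNGAA of interferon regulatory factors (7.17%, and able to overlap the composite), TTCNNNGAA of STAT factors (7.05%), TGTGGT of RUNX factors (13.9%) and GAGGAAG of PU.1 (10.7%). A match describes letters only. In all, 117 listed windows of 106 genes lay by at least 150 bp in regions of 6 of 6 DN migDC and 0 of 4 migDC1 libraries, and 6 windows of 5 genes in the opposite kind. The composite letters were in 5.98% of the 117 windows and the RUNX letters in 6.84%. Among the 770 windows in tested regions these shares were 5.58% and 11.8%. In the 117 windows the AP-1 letters were in 5.98%, those of interferon regulatory factors in 7.69%, STAT in 8.55% and PU.1 in 11.97%. In the 770 windows those shares were 5.58%, 7.53%, 6.23% and 14.4%. The differences in these shares were not tested.

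Over the genome, 34659 of 90465 regions (38.3%) were called in all 10 libraries and 12665 in none. The 21163 regions with a peak in 3 or more of the 10 libraries and none in 3 or more were tested. After Benjamini-Hochberg adjustment of the exact conditional test with genotype as strata, 0 regions passed (0% of those tested), since the smallest p this design allows, 0.01, came to an adjusted p of 0.0997. At an unadjusted p under 0.05 there were 4295 regions, 2543 called more often and 1752 less often in DN migDC. Without strata the same exact test called 2122 regions (adjusted p = 0.0475). These were the regions without overlap between the subsets: 1400 were called in 6 of 6 DN migDC and 0 of 4 migDC1 libraries (6.62% of those tested) and are named DN-only here, and 722 were called in 0 of 6 and 4 of 4 (3.41%) and are named migDC1-only. The words describe these 10 libraries. The DN-only share of 66% turned round when each list was cut to its 44991 strongest peaks, the number in the shortest list. Then 13705 regions were tested, of which 789 were DN-only (5.76%) and 1495 migDC1-only (10.9%), a DN-only share of 34.5%. Without migDC1 Cre-negative 1 alone, the library with the shortest list, the full lists gave 1409 DN-only and 1552 migDC1-only regions. Which subset had more regions of its own depended on the list length and on that library. At both lengths 245 regions were DN-only (17.5% of those in full lists and 31.1% of those in equal lists) and 307 were migDC1-only (42.5% and 20.5%).

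**Figure D1:**
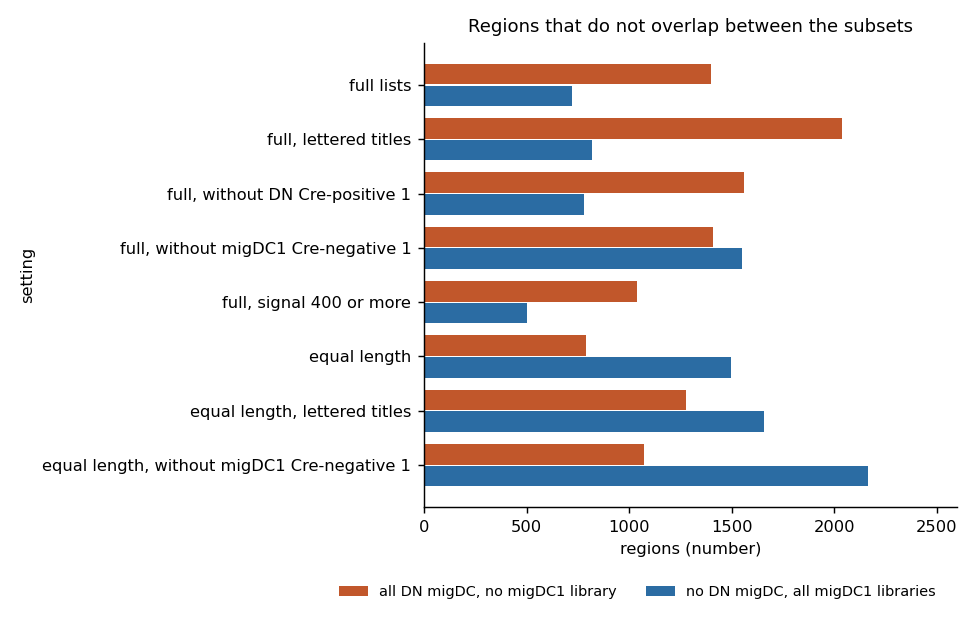
Number of regions called in all DN migDC and no migDC1 libraries, or in no DN migDC and all migDC1 libraries, under 8 settings. DN-only regions are the more numerous with full lists (1400 against 722), and migDC1-only regions with lists of equal length (789 DN-only against 1495) or without migDC1 Cre-negative 1 (1409 against 1552).

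Libraries of a subset resembled each other more than they resembled the other subset. The Jaccard similarity, the regions shared by a pair of libraries divided by those called in either, averaged 0.783 within DN migDC (0.707 to 0.846 over 15 pairs), 0.795 within migDC1 (0.734 to 0.855 over 6 pairs) and 0.693 between them (0.559 to 0.739 over 24 pairs). Within minus between was 0.0934 (exact permutation p = 0.01, two-sided, the smallest the design allows). DN-only regions lay at a gene end in 12.5% of cases, migDC1-only regions in 4.16% and all tested regions in 9.26%, and in equal lists the shares were 17.1%, 5.35% and 10.5%. Median widths were 541.5 bp for DN-only, 372 bp for migDC1-only and 421 bp for all tested regions.

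Of the factors and receptors of the cDC1 lineage, the adhesion molecule gene Cadm1 differed at the most regions. DN migDC libraries had 11, 10 and 14 (Cre-positive 1 to 3) and 12, 10 and 16 (Cre-negative 1 to 3) of its 36 regions, against 27 and 21 (Cre-positive) and 19 and 27 (Cre-negative) in migDC1. Every DN migDC library was below every migDC1 library, and 5 of 13 tested regions were migDC1-only. The one with the strongest peaks, chr9:47703517-47704295 in the gene body, ranked between the 39.0th and 60.4th percentile in migDC1 lists and had a peak in 0 of 6 cDC2 but 6 of 6 cDC1 libraries. The mean difference of -11.3 regions had an exact p of 0.01, the smallest possible, and over 8785 genes with a tested region 0 passed adjustment (0%; adjusted p = 0.101 for Cadm1; 2009 genes had an unadjusted p under 0.05). Groups without overlap were found for 750 genes with more regions in every DN migDC library (8.54%) and 150 with fewer (1.71%). Wdfy4, which is needed for cross-presentation, had 12, 11 and 11 (Cre-positive) and 9, 9 and 12 (Cre-negative) regions in DN migDC, against 15 and 17 (Cre-positive) and 14 and 16 (Cre-negative) in migDC1. Its 2 migDC1-only regions, chr14:32962379-32964290 and chr14:33127911-33128296, each had a peak in 0 of 6 cDC2 but 5 of 6 cDC1 libraries.

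At Irf8, DN migDC libraries had 27, 22 and 16 (Cre-positive 1 to 3) and 19, 19 and 24 (Cre-negative 1 to 3) of its 33 regions, against 25 and 23 (Cre-positive) and 18 and 25 (Cre-negative) in migDC1. The subsets overlapped in this count (exact permutation p = 0.6). The Xcr1 count was 4 in every DN migDC and 5 in every migDC1 library, so it was apart by 1 region only. Counts overlapped at Batf3 (11 to 12 in DN migDC, 10 to 12 in migDC1) and were 2 in every library at Clec9a. Of the 33 Irf8 regions 12 were called in all 10 libraries. Among them were the start region chr8:120735508-120737156 and the one centred 32.4 kb past the start. Of its 9 tested regions 0 were without overlap. The distal region chr8:120725036-120725861, before the start, was called in 6 of 6 DN migDC and 1 of 4 migDC1 libraries (exact p = 0.04 before adjustment). Its peaks ranked at the 62.6th, 68.6th and 46.1st percentile in DN migDC Cre-positive 1 to 3 and at the 67.7th, 34.3rd and 50.9th in Cre-negative 1 to 3, and at the 1.6th in migDC1 Cre-positive 1, and in equal lists it was in 6 of 6 DN migDC and 0 of 4 migDC1 libraries. In the gene body, chr8:120738698-120740129 was called in 3 of 6 DN migDC and 4 of 4 migDC1 libraries, and in equal lists in 0 of 6 and 4 of 4. The regions centred 42.9 and 47.9 kb past the start were called in 6 of 6 resident cDC1 libraries and in 0 of the 22 DN migDC, migDC1, cDC2 and floxed migDC2 libraries. Batf3 had 9 of 16 regions called in all 10 libraries, and Clec9a, a receptor for dead cells on cDC1, had 2 of 4 in all and 2 in none.

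**Figure D2:**
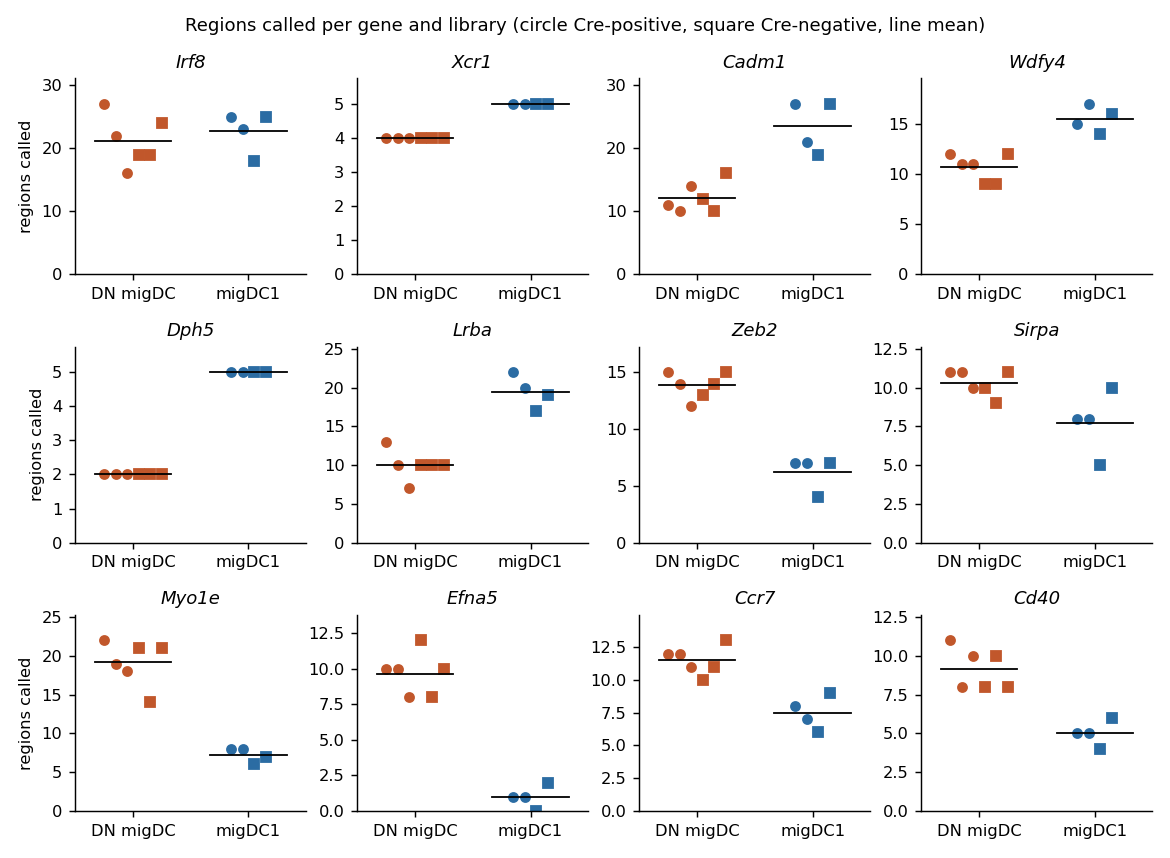
Number of regions called per library at 12 genes, DN migDC left of migDC1, with a point per library and a line at the mean. The groups overlap at Irf8 (16 to 27 in DN migDC, 18 to 25 in migDC1) and are apart at Cadm1 (10 to 16 against 19 to 27) and Zeb2 (12 to 15 against 4 to 7).

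At genes of the cDC2 lineage more of the separating regions were DN-only, as they were over all regions in full lists. Of 50 tested regions of cDC2 identity genes 5 were DN-only (10%) and 1 migDC1-only (2%), against 6.62% and 3.41% of all tested regions. Zeb2, a repressor that restrains the cDC1 fate, had 15, 14 and 12 (Cre-positive) and 13, 14 and 15 (Cre-negative) regions in DN migDC, against 7 and 7 (Cre-positive) and 4 and 7 (Cre-negative) in migDC1. Every DN migDC library was above every migDC1 library (difference 7.58 regions, exact p = 0.01, adjusted p = 0.101). Its 3 DN-only regions were each called in 6 of 6 floxed migDC2 and in 0 of 6 cDC1 libraries. In order of position, they were called in 1, 0 and 2 of 6 cDC2 libraries, so most resident cDC2 libraries lacked them too. The strongest of them, chr2:45089289-45090181, ranked between the 45.0th and 61.4th percentile in DN migDC and was DN-only in equal lists too. Sirpa had 1 DN-only region in its gene body, chr2:129596858-129598015, which ranked between the 40.3rd and 67.4th percentile, was DN-only in equal lists and had a peak in 4 of 6 cDC2 but 1 of 6 cDC1 libraries. Dtx1, a regulator of Notch signalling, had 1. Klf4, a factor of skin cDC2 that respond to type 2 cytokines, had its only tested region on the migDC1-only side (chr4:55508784-55509353), though 5 of 6 floxed migDC2 libraries had it. At Irf4, 0 of 3 tested regions were without overlap.

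Read as lists, the cDC1 identity genes had 91 tested regions, of which 2 were DN-only (2.20%) and 12 migDC1-only (13.2%), against 6.62% and 3.41% of all tested regions. The 12 lay at Cadm1 (5), Xcr1, Bcl6, Dkk3, Fgd6, Ly75, Plpp1 and Zfp366, and the 2 at Cd8a and Nfil3. In equal lists the numbers were 2 and 22 of 78 (2.56% and 28.2%, against 5.76% and 10.9% of all). Without migDC1 Cre-negative 1 they were 2 and 18 of 80 (2.5% and 22.5%, against 7.70% and 8.48% of all). The median difference in the percent of libraries with a call was -41.7 for this list and 33.3 for all tested regions. The cDC2 identity genes had 5 DN-only and 1 migDC1-only of 50 tested regions, with a median difference of 50 percentage points. In equal lists they had 3 and 1 of 40 (7.5% and 2.5%, against 5.76% and 10.9% of all). Genes of the response to type 2 cytokines and TSLP, an epithelial cytokine that acts on skin DC, had 5 and 1 of 52, and 3 and 2 of 27 in equal lists. These 5 lay at 2 genes only, Pdcd1lg2 (3), which encodes the second ligand of PD-1, and Mrc1 (2), which encodes the mannose receptor. Among 300 tested regions of DC transcription factor genes 16 were DN-only and 9 migDC1-only, near the shares over all regions. There were 16 and 18 of 213 in equal lists (7.51% and 8.45%, against 5.76% and 10.9% of all). Without migDC1 Cre-negative 1 there were 16 and 18 of 258 (6.20% and 6.98%, against 7.70% and 8.48% of all). Within that list Tcf4, a factor of plasmacytoid DC, and Zeb2 had 3 DN-only regions each, and the 9 migDC1-only regions lay at 9 genes, Batf, Bcl11a, Bcl6, Hivep3, Klf4, Klf6, Pparg, Runx2 and Rxra.

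**Figure D3:**
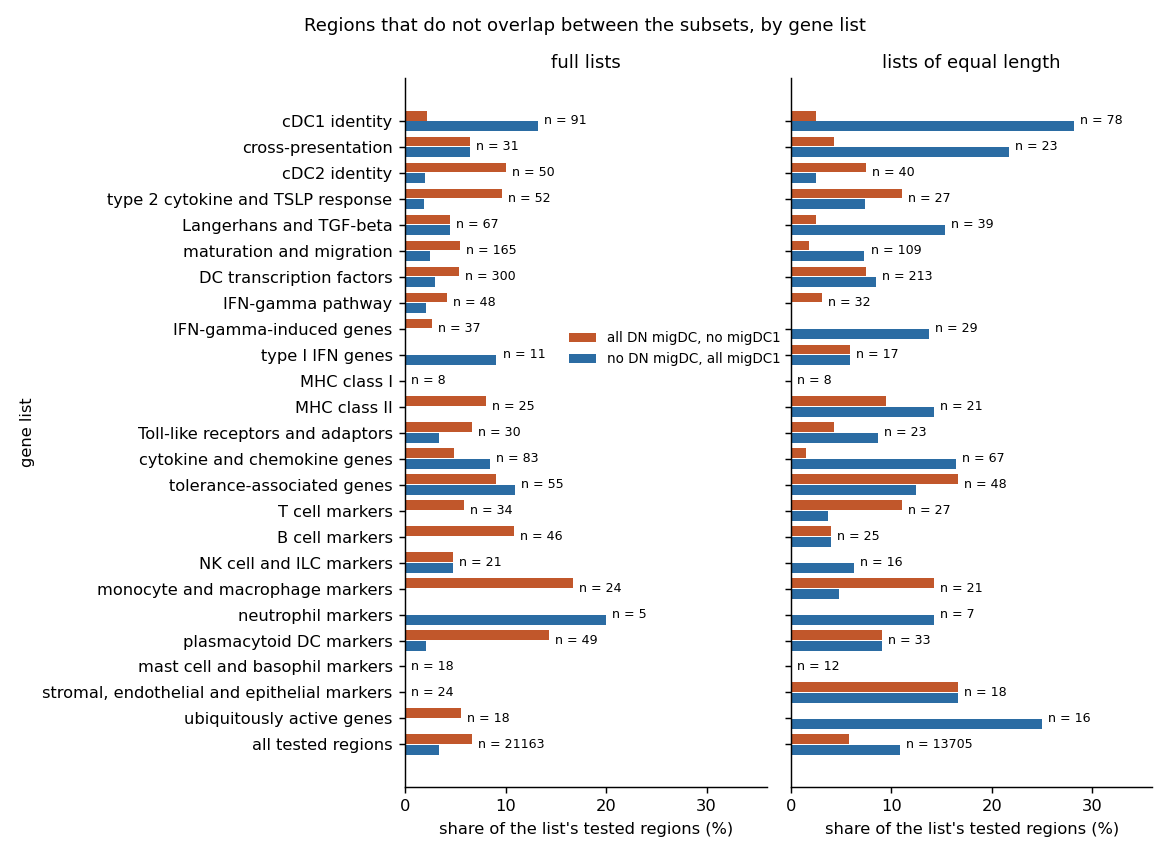
Share of each list's tested regions that were DN-only or migDC1-only, with full lists on the left and lists of equal length on the right, and the number tested beside the bars. The cDC1 identity genes have 2.20% DN-only and 13.2% migDC1-only regions with full lists, against 6.62% and 3.41% over all tested regions.

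Genes of maturation and migration had 9 DN-only and 4 migDC1-only of 165 tested regions (5.45% and 2.42%, against 6.62% and 3.41% of all tested regions). The side with more regions turned round in 2 settings, as it did over all tested regions. In equal lists there were 2 and 8 of 109 (1.83% and 7.34%, against 5.76% and 10.9% of all). In full lists without migDC1 Cre-negative 1 there were 9 and 13 of 145 (6.21% and 8.97%, against 7.70% and 8.48%). Ccr7 had 12, 12 and 11 (Cre-positive) and 10, 11 and 13 (Cre-negative) of its 13 regions in DN migDC, against 8 and 7 (Cre-positive) and 6 and 9 (Cre-negative) in migDC1. The groups did not overlap (difference 4.0, exact p = 0.01, adjusted p = 0.101), and 6 regions were called in all 10 libraries. The DN-only pair, chr11:99123893-99124637 and chr11:99127618-99128649, was called in 6 of 6 floxed migDC2 libraries. In equal lists they were in 3 and 5 of 6 DN migDC and 0 of 4 migDC1 libraries. Near Cd40 the region chr2:165076176-165080107, 3932 bp wide, was DN-only at both list lengths. Its peaks ranked at the 76.6th, 58.3rd and 66.6th percentile in DN migDC Cre-positive 1 to 3 and at the 38.8th, 60.3rd and 72.8th in Cre-negative 1 to 3. It was called in 0 of 12 resident and 6 of 6 floxed migDC2 libraries. Cd83, Map4k4, Nfkb1, Rel, Tnfrsf9 and Spred1 had 1 DN-only region each, and Bcl2l1, Socs2, Tnfaip3 and Spred1 had 1 migDC1-only region each. Pdcd1lg2 held both kinds, with 3 DN-only regions and 1 migDC1-only region (chr19:29404474-29404851), while the neighbouring Cd274 had 8 of 13 regions called in all 10 libraries and 0 without overlap.

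Separating regions of the interferon-γ pathway lay at 2 genes. Of 48 tested regions 2 were DN-only (4.17%, against 6.62% of all tested regions), both at Socs3, a feedback inhibitor of cytokine receptors, and 1 was migDC1-only (2.08%, against 3.41%), at the phosphatase gene Ptpn2. Without migDC1 Cre-negative 1 there were 2 DN-only and 5 migDC1-only regions of 41 tested (4.88% and 12.2%, against 7.70% and 8.48% of all). Interferon-γ-induced genes had 1 and 0 of 37 (2.70% and 0%). The side with more regions turned round in equal lists, with 0 and 4 of 29 (0% and 13.8%, against 5.76% and 10.9% of all). It also did so without migDC1 Cre-negative 1, with 1 and 2 of 33 (3.03% and 6.06%). Ifngr1 and Irf1 had 0 regions without overlap among 2 and 6 tested. Ifngr1 had 6, 8 and 7 (Cre-positive) and 6, 7 and 8 (Cre-negative) regions in DN migDC, against 7 and 7 (Cre-positive) and 4 and 8 (Cre-negative) in migDC1, and the groups overlapped. The percent of the pathway's regions called was 65.7% to 77.6% in DN migDC and 56.7% to 73.8% in migDC1 libraries, and these ranges overlapped.

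Cytokine, chemokine and receptor genes had 4 DN-only and 7 migDC1-only of 83 tested regions (4.82% and 8.43%, against 6.62% and 3.41% of all tested regions), and 1 and 11 of 67 in equal lists (1.49% and 16.4%, against 5.76% and 10.9% of all). The 7 lay at 1 region each of Il12b, which encodes a subunit of IL-12 and IL-23, Il27, Il10, Tnfsf9, Ccr1, Cxcr4 and Xcr1, and the 4 at Ccr7 (2), Cxcr5 and Il18. The Il10 region chr1:130989406-130989697 was called in 0 of 12 resident libraries. Genes tied to tolerance had 5 and 6 of 55 (9.09% and 10.9%). Without migDC1 Cre-negative 1 they had 5 and 10 of 48 (10.4% and 20.8%, against 7.70% and 8.48% of all). In equal lists they had 8 and 6 of 48 (16.7% and 12.5%), and the side with more regions turned round. Genes of Langerhans cells and TGF-β signalling had 3 and 3 of 67 (4.48% each). Without migDC1 Cre-negative 1 they had 3 and 6 of 58 (5.17% and 10.3%, against 7.70% and 8.48% of all). In equal lists they had 1 and 6 of 39 (2.56% and 15.4%, against 5.76% and 10.9% of all). Within that list the receptor gene Tgfbr2 had 2 DN-only regions and Smad3, which encodes a signal transducer of that receptor, had 2 migDC1-only regions. MHC class II genes had 2 and 0 of 25, at H2-Oa and Lgmn, and 2 and 3 of 21 in equal lists, and MHC class I genes had 0 and 0 of 8.

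Beyond the lists, Myo1e, an unconventional myosin, had the most DN-only regions, 6 of 12 tested. DN migDC libraries had 22, 19 and 18 (Cre-positive) and 21, 14 and 21 (Cre-negative) regions there, against 8 and 8 (Cre-positive) and 6 and 7 (Cre-negative) in migDC1. Efna5, which encodes an ephrin ligand, had 10, 10 and 8 (Cre-positive) and 12, 8 and 10 (Cre-negative), against 1 and 1 (Cre-positive) and 0 and 2 (Cre-negative). The region beside its start, chr17:62881346-62882616, reached the 91.7th percentile in DN migDC Cre-negative 2 and was DN-only at both list lengths. Efna5, B4galt5, Cd109 and Rgl1 had 4 DN-only regions each, and Cd109, a surface protein that binds TGF-β, had 4 to 5 regions in every DN migDC library and 0 in every migDC1 library. All 4 DN-only regions of Cd109 were called in 6 of 6 floxed migDC2 and 0 of 12 resident libraries. On the other side stood Cadm1 (5), Lrba (4), Camk1d (4), and Dph5 and Mipep (3 each). Dph5, an enzyme of diphthamide synthesis, had 2 regions in every DN migDC library and 5 in every migDC1 library. Lrba had 7 to 13 regions in DN migDC and 17 to 22 in migDC1. For each of these genes except Camk1d, whose counts were 18 to 23 in DN migDC and 21 to 31 in migDC1, the groups did not overlap. The genes are listed here for their many separating regions, which enter these counts, so the gap is not a separate result.

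**Figure D4:**
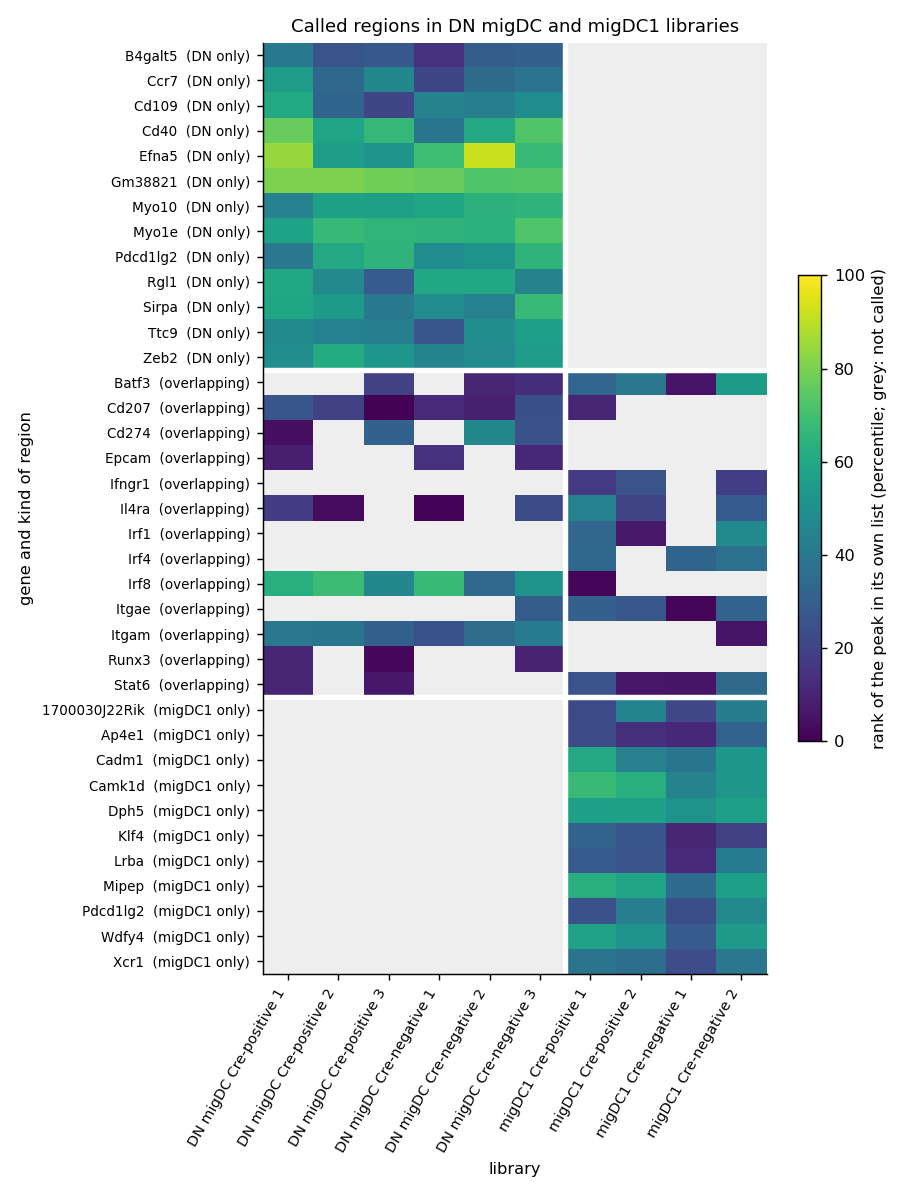
Rank of the peak within its own list, as a percentile, in each of the 10 libraries for the region shown of each gene, with grey where no peak was called. DN migDC libraries are left of migDC1 libraries. The Xcr1 region ranks between the 23.8th and 39.8th percentile in the 4 migDC1 libraries and is called in 0 of 6 DN migDC libraries.

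The resident libraries, which did not enter the choice of these regions, told the 2 kinds apart. migDC1-only regions were called to 0.508 ± 0.508% in cDC2 and 27.1 ± 5.54% in cDC1 (SD, n = 6 each; difference -26.5 percentage points, exact permutation p = 0.005, two-sided, the smallest possible). Each cDC2 library had 0% to 1.25% of them and each cDC1 library 20.6% to 32.4%. Relative to all tested regions, called to 30.6 ± 11.6% in cDC2 and 42.6 ± 7.86% in cDC1, the migDC1-only share stood at -30.1 ± 11.1 points in cDC2 and -15.5 ± 3.91 points in cDC1 (difference -14.5, exact permutation p = 0.03). With so few migDC1-only regions called, the relative value of a cDC2 library is nearly minus its share of all tested regions (17.3% to 44.3%). It therefore says little about the migDC1-only regions themselves. DN-only regions were called to 54.4 ± 14% in cDC2 and 47.7 ± 8.70% in cDC1, which did not differ beyond the spread (exact permutation p = 0.35). Relative to all tested regions they were 23.9 ± 2.83 points higher in cDC2 and 5.08 ± 1.42 points higher in cDC1 (difference 18.8, exact permutation p = 0.005, n = 6 each). Of the 722 migDC1-only regions 94 (13%) had a peak in no cDC2 but all cDC1 libraries and 0 the other way round, against 4.55% and 0.789% of all tested regions. Those 94 were assigned to 86 genes, with Cadm1, Xcr1, Plpp1 and Dkk3 from the cDC1 list and Ccr1 and Cxcr4 from the chemokine receptors, and 42 of them were migDC1-only in equal lists as well. Another 453 migDC1-only regions (62.7%) were called in 0 of 12 resident libraries, against 34.8% of all tested and 22.6% of DN-only regions. Of the DN-only regions 29 of 1400 (2.07%) had a peak in all cDC2 but no cDC1 libraries, and 3 (0.214%) the other way round, Cd8a being 1 of them.

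**Figure D5:**
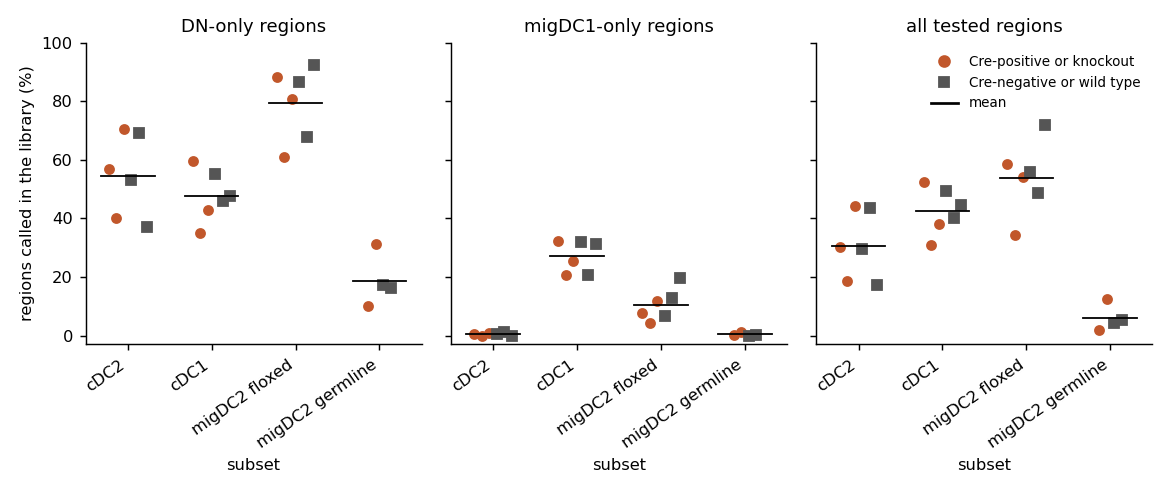
Percent of DN-only, migDC1-only and all tested regions called in each library of 4 subsets that did not enter their choice, with a line at the mean. cDC2 libraries hold 0% to 1.25% of the migDC1-only regions and cDC1 libraries 20.6% to 32.4%.

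The floxed migDC2 libraries, given as values only, held 61.1% to 92.3% of the DN-only regions (median 83.6%) and 4.29% to 19.8% of the migDC1-only regions (median 9.70%), while they held 34.3% to 71.8% of all tested regions. In the 4 lettered migDC2 libraries, whose titles are of the kind the migDC1 libraries have, the ranges were the same, and in the 2 plain ones they were 86.4% to 88.4% and 6.79% to 7.76%. The 4 germline migDC2 libraries held 9.93% to 31.4% of the DN-only and 0% to 1.11% of the migDC1-only regions, with 1.93% to 12.6% of all tested ones. Of the DN-only regions 38 (2.71%) were called in 0 of 6 floxed migDC2 libraries, against 18.9% of all tested and 74.8% of migDC1-only regions. Of these 38 regions, 15 were called in 0 of 12 resident libraries as well. Tcf4 and Efna5 had such regions, and Cd8a had 1 that resident cDC1 shared. In equal lists 4 of the 38 were DN-only.

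Markers of other cells were looked at in whole lists, beside shares of 6.62% DN-only and 3.41% migDC1-only over all tested regions. Monocyte and macrophage markers had 4 DN-only (16.7%) and 0 migDC1-only of 24 tested regions, among them those of Adgre1 (2), which encodes F4/80, and C1qc. DN migDC libraries had 60 to 82 of this list's 115 regions and migDC1 libraries 41 to 60. B cell markers had 5 DN-only (10.9%) and 0 migDC1-only of 46, at Ebf1 (2), Blnk, Cxcr5 and Pou2af1, with 56 to 86 of 111 regions in DN migDC and 37 to 57 in migDC1. Plasmacytoid DC markers had 7 and 1 of 49 (14.3% and 2.04%), with 97 to 134 of 150 regions in DN migDC and 65 to 94 in migDC1. The 7 lay at Tcf4 (3), Zeb2 (3) and Runx2 (1), and the 1 migDC1-only region also lay at Runx2. All 3 genes are in the list of DC transcription factors too, and Zeb2 is among the cDC2 identity genes. In equal lists, where the shares over all regions were 5.76% and 10.9%, the 3 lists had 3 and 1 of 21, 1 and 1 of 25, and 3 and 3 of 33 regions of these kinds. T cell markers had 2 and 0 of 34 with full lists and 3 and 1 of 27 with equal ones. Natural killer and innate lymphoid cell markers had 1 and 1 of 21 with full lists and 0 and 1 of 16 with equal ones. Neutrophil markers had 0 and 1 of 5 with full lists and 0 and 1 of 7 with equal ones. Mast cell markers had 0 and 0 of 18 with full lists and 0 and 0 of 12 with equal ones. Stromal markers had 0 and 0 of 24 with full lists and 3 and 3 of 18 with equal ones. In lettered libraries the stromal list had 3 and 0 of 13 (23.1% and 0%, against 13.2% and 5.31% of all). There the monocyte and macrophage, B cell and plasmacytoid DC lists had 4 and 0 of 17, 5 and 0 of 30, and 8 and 1 of 36. T cell markers had 2 and 0 of 26, and natural killer and innate lymphoid cell markers 2 and 1 of 16. Neutrophil markers had 1 and 1 of 3, and mast cell markers 0 and 0 of 12. The part of other cells in the results was not tested.

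With full lists, the 4 lettered DN migDC and the 4 migDC1 libraries gave 2037 DN-only and 817 migDC1-only of 15383 tested regions. Of 71 non-overlapping regions shown for the named genes, the one with the highest ranks per gene and kind, 32 were without overlap in equal lists too and 39 were not. Within each genotype, with 3 against 2 libraries, the exact test cannot go below p = 0.1. Among Cre-positive libraries 3658 regions were DN-only and 3125 migDC1-only, and among Cre-negative libraries 3683 and 1060.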

How the data were processed

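Omni-ATAC-seq peak lists, 1 per library, were used as deposited. Per the submitters' processing notes, Bowtie2, deepTools and Genrich were used with mm10, without versions or settings. The authors deposited a peak signal, whose normalization is unknown, and a −log10 p-value per peak. The signal was used only to rank or filter peaks within a list, and the −log10 value in the deposited lists only to order ties.

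A region was any stretch of 100 bp or more that peaks of 3 or more of the 32 libraries covered on chromosomes 1 to 19 and X (90465 regions). A call needed a peak that overlapped 50% or more of either the peak or the region. Regions with a peak in 3 or more of the 10 libraries and none in 3 or more entered a two-sided exact conditional test stratified by genotype, with Benjamini-Hochberg adjustment over all tested regions (threshold 0.05). Library values and regions per gene were compared by exact permutation within genotype. A region went to a RefSeq (GRCm38.p6) protein-coding gene end within 1000 bp, else to the gene body, else to the nearest end within 50000 bp. A gene end can be a start or a 3′ end. Python 3.11.15, numpy 2.4.6, pandas 2.3.3, scipy 1.17.1 and matplotlib 3.10.9 were used, and the tests were tested on simulated data.

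The libraries, gene lists and genes were chosen with earlier results of these data known. Named genes were 24 always given, up to 3 per list and direction and 8 overall per direction with the most non-overlapping regions. Other genes named beside a count were chosen after their values were seen. Alternatives were list length, title kind, strata, overlap, signal, region set, filter and each library left out. Some genes are not reported here.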

Additional observations from a re-analysis of the deposited data

Results flagged for a closer look

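In 14 of 86 groups of values 1 library stood apart from the rest of its group. The limit used is one that chance passes in about 1 group in 20 for continuous values. Most of these values are small whole-number counts with ties, for which that rate was not tested. migDC1 Cre-negative 1 had 40880 regions called, against 53313 to 55033 in the other migDC1 libraries, and 27.95 Mb covered. The same library had 4 regions of Zeb2.

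Among DN migDC libraries, Cre-positive 1 had 23 regions of Runx3 and 5 of Stat6, Cre-positive 2 had 5 of Gm38821, Cre-negative 1 had 4 of Ap4e1, Cre-negative 2 had 7 of Myo10, and Cre-negative 3 had 24 of Pdcd1lg2 and 5 of Ttc9. Among migDC1 libraries, Cre-positive 1 had 8 regions of Epcam and 5 of Klf4, and Cre-negative 2 had 19 of Pdcd1lg2 and 4 of Stat6.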

How the results depend on the processing

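No tested difference changed its sign, but which kind of region was the more numerous turned round in lists of equal length and without migDC1 Cre-negative 1. With genotype strata 0 regions passed adjustment in every setting, and without strata 1400 (higher in DN migDC) and 722 (lower) passed. In lettered libraries and within each genotype no region could pass. The smallest p of the exact test was 0.0556 and 0.1 there, so these zeros carry no information. DN-only and migDC1-only regions numbered 789 and 1495 in lists of equal length, 3658 and 3125 among Cre-positive and 3683 and 1060 among Cre-negative libraries. Leaving out each library gave 1409 to 2045 DN-only and 740 to 1552 migDC1-only regions. In lists of equal length, settings chosen after seeing the data, leaving out each library gave 824 to 1107 and 1536 to 2164, and lettered titles alone 1276 and 1658. Within minus between similarity was 0.0917 in lettered libraries (exact permutation p = 0.0556, the smallest possible there). Leaving out each resident library put the migDC1-only difference between -17.1 and -11.9 points. Without cDC1 Cre-positive 2 it was -13.5 and without cDC1 Cre-positive 3 it was -14.0 (exact permutation p = 0.05 each). With regions separated at both list lengths, also chosen after seeing the data, the differences were 23.3 (DN-only) and -17.1 (migDC1-only). Of the 71 regions shown for named genes, 24 stayed without overlap at a signal of at least 400. The cause of these changes was not tested. Depth is unknown, and a missing peak can be a closed region or one under the authors' threshold.

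Title numbers that lettered libraries share were tried as a replicate block, with 2037 DN-only and 817 migDC1-only regions. With that block 0 regions passed adjustment (smallest adjusted p = 0.440 in the exact test). None could pass, since the smallest p of the exact test was 0.125 before adjustment. Deviations of same-numbered libraries from their group means correlated at 0.0123 and 0.00918, so the numbers were not taken to pair the libraries.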
